A study of Caenorhabditis elegans with 2 samples.

Results

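The histone genes of Caenorhabditis elegans were examined for regions bound by GFP-tagged SNPC-1.3. Members were all protein-coding genes of the Ensembl annotation of WBcel235 (ce11) whose symbol begins with his-, which gave 72 of 19973 nuclear protein-coding genes. The choice used the gene name only and no measured value. Genes were given their RefSeq symbols by position, which matched for all 72, because the Ensembl names repeated among copies and gave only 50 distinct names. Chromatin immunoprecipitation with sequencing (ChIP-seq) had been done on whole young adult hermaphrodites of strain YL485, of unknown age, carrying the gene F08F3.9 (snpc-1.3) fused at the C terminus to GFP and FLAG. The labels name the tag both eGFP and GFP-FLAG, and describe a stable transgenic line with an insertion targeting snpc-1.3. Sonicated chromatin was precipitated with an anti-GFP antibody in 2 biological replicates, and the same control served both. There was 1 group only, so regions and genes are compared here, not conditions, and no test of a condition was possible.

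Histones package DNA into nucleosomes, each made of an octamer of the core histones H2A, H2B, H3 and H4, with the linker histone H1 between them. In C. elegans the replication-dependent core histone genes lie in clusters of near-identical copies, mostly as divergent pairs, H2A beside H2B and H3 beside H4, with a shared promoter between the start codons. Their short messages end in a stem-loop instead of a poly(A) tail, as in other animals. SNPC-1.3 resembles a subunit of the snRNA-activating complex SNAPc, which in nematodes also acts at piRNA genes, and is known as a piRNA factor of male germ cells.

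The promoters that the results turn on are shown first, read from the RefSeq sequence of WBcel235, 5′ to 3′ along the strand named for each. Capitals mark TGTCCCCGC, TATAAA and CNCCTNCCC on either strand, so that TTTATA is TATAAA read from the other strand. The interval between the start codons of his-59 (H3) and his-60 (H4) held the second strongest peak at any histone gene (chrIV:7487993-7488248, minus strand, 256 bp). The interval of his-63 and his-64 belongs to the same H3-H4 kind and had a weaker candidate beside it (chrIV:11406862-11407115, plus strand, 254 bp). The interval of his-45 and his-46 is the closest relative of the his-59/his-60 interval, at 85.8% identity, and had no region in any list (chrIV:11326330-11326587, minus strand, 258 bp). The interval of his-49 and his-50 has an exact copy elsewhere in the genome and also had no region (chrV:8847705-8847942, minus strand, 238 bp). The last sequence is the peak at his-37 (chrV:9546898-9547173, plus strand, 276 bp), an H4 gene outside any divergent pair, whose annotated start lies near the right end.
his-59/his-60: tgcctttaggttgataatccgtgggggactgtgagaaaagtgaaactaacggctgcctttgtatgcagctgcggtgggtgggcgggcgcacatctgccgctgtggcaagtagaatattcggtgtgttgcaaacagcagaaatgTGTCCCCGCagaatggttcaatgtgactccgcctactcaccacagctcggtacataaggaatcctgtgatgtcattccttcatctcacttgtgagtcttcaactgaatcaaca
his-63/his-64: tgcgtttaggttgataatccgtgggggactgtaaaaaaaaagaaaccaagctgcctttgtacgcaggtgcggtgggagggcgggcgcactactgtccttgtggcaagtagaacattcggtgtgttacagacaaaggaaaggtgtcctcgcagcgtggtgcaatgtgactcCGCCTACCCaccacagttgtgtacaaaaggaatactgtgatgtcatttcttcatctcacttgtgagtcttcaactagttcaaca
his-45/his-46: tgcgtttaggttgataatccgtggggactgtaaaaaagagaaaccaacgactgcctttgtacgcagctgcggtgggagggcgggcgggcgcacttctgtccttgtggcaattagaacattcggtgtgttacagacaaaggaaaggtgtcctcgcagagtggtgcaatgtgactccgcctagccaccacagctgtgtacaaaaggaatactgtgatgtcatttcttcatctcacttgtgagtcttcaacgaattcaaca
his-49/his-50: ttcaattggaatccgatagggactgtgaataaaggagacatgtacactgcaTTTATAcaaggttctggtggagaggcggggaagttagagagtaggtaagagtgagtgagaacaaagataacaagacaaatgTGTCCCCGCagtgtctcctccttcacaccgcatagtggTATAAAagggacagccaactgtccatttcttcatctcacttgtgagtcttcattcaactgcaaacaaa
his-37 peak: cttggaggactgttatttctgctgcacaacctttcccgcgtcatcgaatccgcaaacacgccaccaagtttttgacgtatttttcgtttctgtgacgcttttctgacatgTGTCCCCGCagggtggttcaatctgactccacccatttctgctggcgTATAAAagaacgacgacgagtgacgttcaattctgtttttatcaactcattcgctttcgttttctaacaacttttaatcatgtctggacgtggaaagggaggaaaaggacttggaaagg

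The lists held 30000 candidate regions for each replicate, 30000 for the pooled replicates, and 1676 regions that passed the authors' irreproducible discovery rate (IDR) threshold, called IDR peaks here. Every region carries a signal value from the authors' peak caller, on a scale that differs between lists, so signals are set side by side within a list and ranks are given with them (rank 1 is the highest). The 1676 IDR peaks were the top of the pooled list, from a signal of 39.8 upwards. Read depth is unknown, since the lists hold no read counts. A region was given to a gene when its summit lay within 500 bp of the annotated 5′ end. For 69 of the 72 genes the annotated length was a multiple of 3, with his-37 among the exceptions. The annotated 5′ end was therefore taken as the start codon at most members. This was not checked for each gene, and some are longer than others of their class, as his-57 with 1314 bp beside his-68 with 384 bp. The tagged gene itself had no IDR peak within 500 bp of its 5′ end, and its best pooled candidate had a signal of 20.1 at rank 6151, which does not check the label.

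An IDR peak lay at 7 of the 72 histone genes (9.72%), against a background of 5.94% of all protein-coding genes. These 7 genes were his-67, his-68, his-59, his-60, his-61, his-62 and his-37. They shared 5 distinct peaks and belonged to 4 promoter units, out of 41 units made of 31 divergent pairs and 10 genes on their own. With so few units the share of genes is a count of neighbouring copies more than of separate events. Counted as pairs, 3 of the 31 divergent histone pairs had an IDR peak, against a background of 20.2% of 1697 divergent pairs of protein-coding genes. A pooled candidate of any strength lay at 16 histone genes (22.2%), below the background of 35.1%, and these held 19 distinct regions in 11 units. No region of any list lay at 50 of the 72 genes (69.4%), against 48% of all protein-coding genes. The median of the best pooled signal was 29.4 over the 16 histone genes and 18.1 over all protein-coding genes with a candidate.

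**Figure D1:**
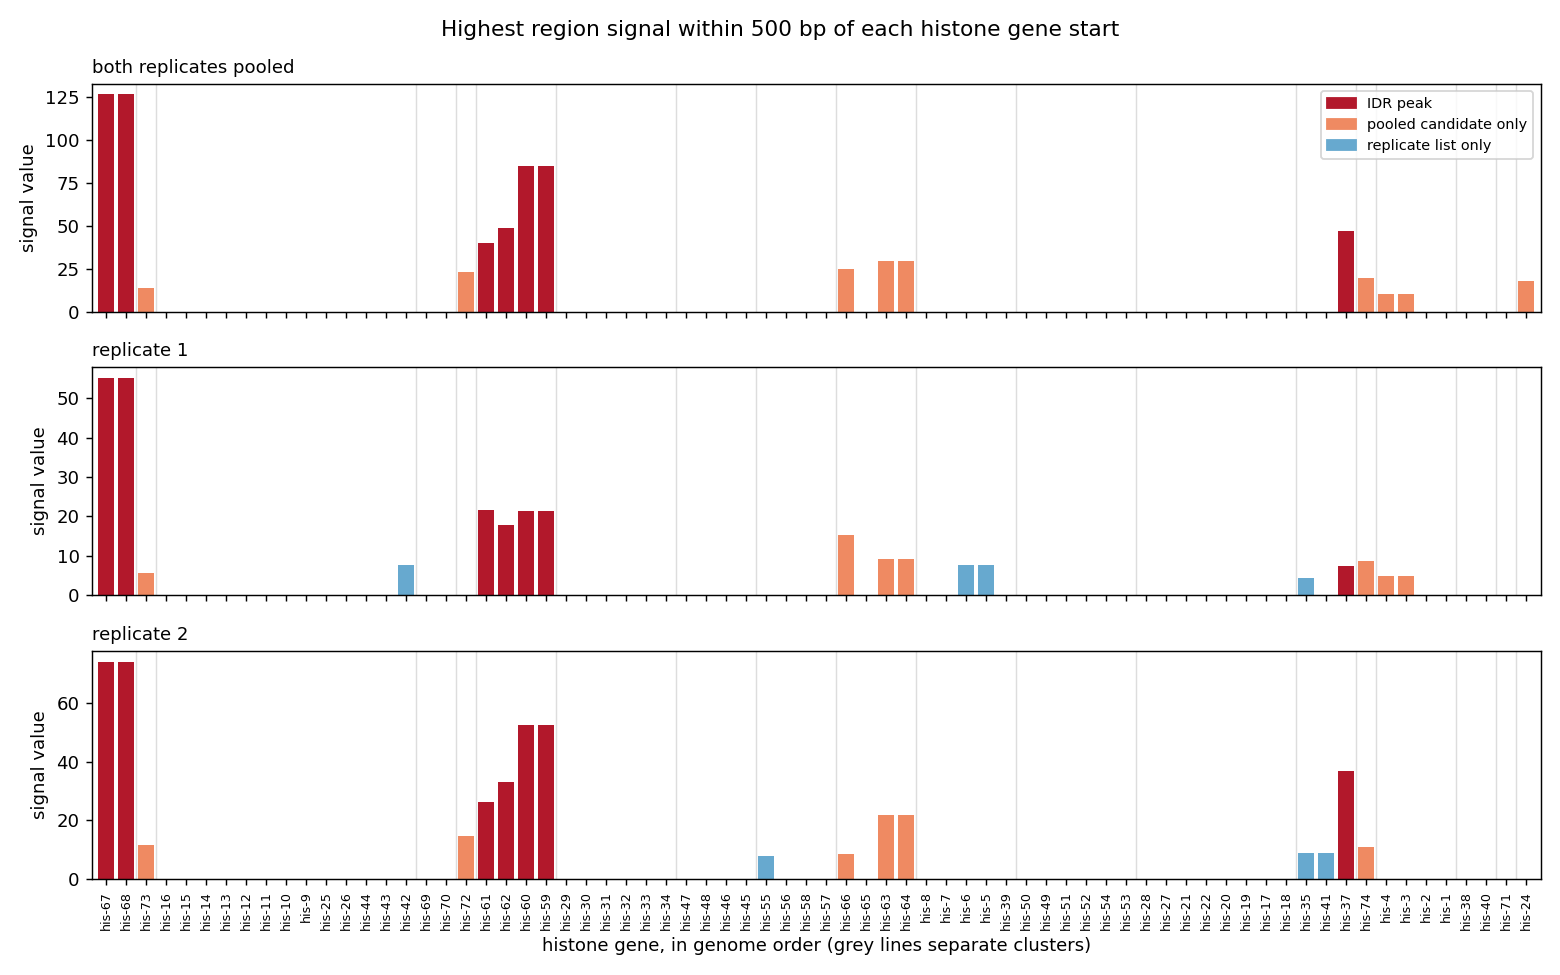
Highest signal value of a region within 500 bp of the 5′ end of each of the 72 histone genes in genome order, in the pooled list and in each replicate list (linear axes, each list on its own scale), coloured by the kind of region found. High bars stand at his-67/his-68 (127 in the pooled list) and at the 4 neighbours his-61, his-62, his-60 and his-59, with 50 genes empty throughout.

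The strongest peak lay between his-67, which encodes H4, and his-68, which encodes H2A. It was the only divergent pair of that kind, beside 16 pairs of H2A with H2B and 14 of H3 with H4. The IDR peak covered chrI:9988935-9989094, with its summit 112 bp upstream of his-68 and 257 bp upstream of his-67. Its signal was 127 in the pooled list (rank 110), 55.1 in replicate 1 (rank 66) and 74.3 in replicate 2 (rank 174). Both replicates thus placed it among their highest regions, and their summits lay 39 bp to the left and 7 bp to the right of the pooled summit. A weaker pooled candidate of signal 14.4 (rank 13140) lay 166 bp past the 3′ end of his-67.

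The second peak, chrIV:7488098-7488181, lay between his-60 and his-59, 120 bp upstream of the first and 137 bp upstream of the second. It was 84 bp wide in the IDR and pooled lists. Its signal was 84.8 in the pooled list (rank 345), 21.3 in replicate 1 (rank 840) and 52.5 in replicate 2 (rank 457). The summits of the replicates fell within 1 bp of the pooled summit, the closest placement among the 5 peaks. In the interval printed above, TGTCCCCGC lay with its centre 11 bp from this summit.

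The other 2 peaks of that cluster lay past the annotated ends of genes. These ends may be stop codons, so the summits may still lie in the transcripts, which was not checked. The peak at his-62 (H2B), chrIV:7486825-7487100, had its summit 418 bp downstream of the start and 47 bp past the annotated 3′ end. Its signal was 49.01 in the pooled list (rank 1134), 17.9 in replicate 1 (rank 1245) and 32.9 in replicate 2 (rank 1259). The peak at his-61 (H2A), chrIV:7485584-7485859, lay 112 bp past the 3′ end, and its signal was 40.2 in the pooled list (rank 1644), 21.6 in replicate 1 (rank 808) and 22.3 in replicate 2 (rank 2641). It was thus just above the lowest IDR signal, and outside the first 1676 regions of replicate 2. The promoter interval shared by these 2 genes held a pooled candidate only, with a signal of 36.4 (rank 1939), 12.8 in replicate 1 (rank 2594) and 26.1 in replicate 2 (rank 1945). All 3 lists therefore had regions both between the genes and behind them.

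The 4 genes from his-61 to his-59 formed the histone cluster with the densest candidates. Its 3.83 kb, counted with 500 bp to each side, held 7 pooled candidates or 1.83 per kb, against 0.299 per kb over the nuclear genome. The 2 further regions at these genes were one of signal 35.0 (rank 2070) 107 bp past the 3′ end of his-60 and one of 18.0 (rank 8073) inside his-59. The regions at these 4 genes thus lay in both promoter intervals, past the ends of his-61, his-62 and his-60, and inside his-59.

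**Figure D2:**
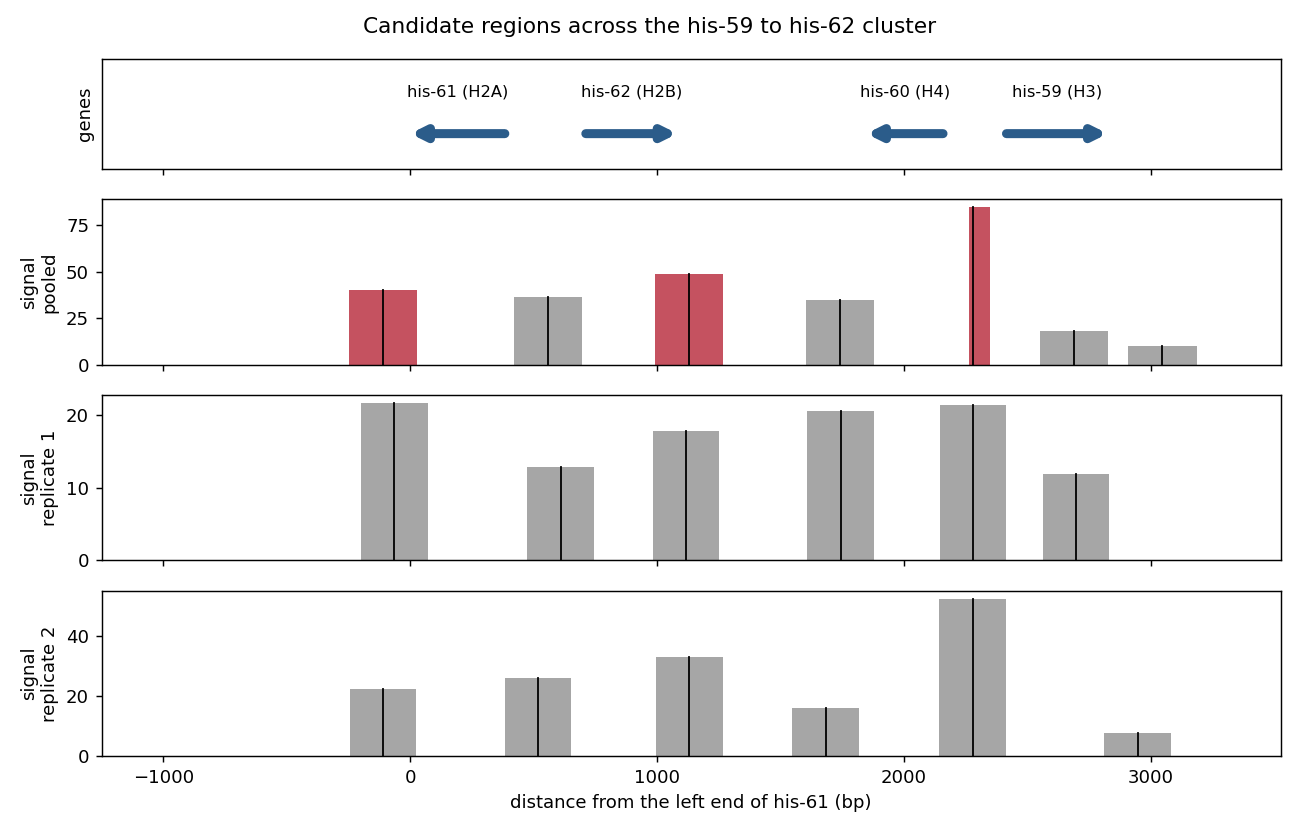
Regions across the his-61, his-62, his-60 and his-59 cluster, with arrows for the genes and their direction; the horizontal axis is the distance in bp from the left end of his-61, bars span each region, their height is its signal value and black lines are summits. IDR peaks are red in the pooled panel, the tallest of them at 84.8 between his-60 and his-59.

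The last IDR peak lay 69 bp upstream of his-37, an H4 gene. Its signal was 46.8 in the pooled list (rank 1230), 7.49 in replicate 1 (rank 10289) and 36.9 in replicate 2 (rank 978). The replicates did not place it alike, since it was far outside the first 1676 regions of replicate 1, where the deposited −log10 q-value was 0.775, against 3.59 in replicate 2. A second candidate inside the gene, of signal 22.8 in the pooled list (rank 4617), appeared in replicate 2 (25.4, rank 2054) and had no counterpart within 500 bp of the start in replicate 1. Taking the first 1676 regions of each replicate in place of the IDR list, replicate 1 had 6 histone genes with a region (background 5.10%) and replicate 2 had 6 (background 5.79%). The genes his-67, his-68, his-59, his-60 and his-62 were in both sets, his-61 only in that of replicate 1 and his-37 only in that of replicate 2. No annotated non-coding gene lay within 1000 bp of any of the 5 summits.

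Among units without an IDR peak, that of his-63 (H3) and his-64 (H4) had the highest pooled signal, 29.4 (rank 2808). Its summit was inside his-64, 197 bp from the start, and not in the shared promoter. In replicate 2 the matching region had a signal of 21.8 (rank 2772), and in replicate 1 a region of 7.02 (rank 11995) lay there beside another of 9.05 (rank 6398) within the promoter interval. The next was his-66 (H2B), with a pooled signal of 24.5 (rank 3958), 15.2 in replicate 1 (rank 1756) and 8.30 in replicate 2 (rank 22459). Its summit lay 111 bp past the 3′ end of the gene.

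The genes for H3.3, the H3 form that is deposited outside replication, were 5. The gene his-72 had pooled candidates of 22.8 (rank 4609) and 16.3 (rank 10041) inside it, and within 500 bp of the start replicate 2 had regions too (7.47, rank 26353, and 14.5, rank 7010). Replicate 1 had none within that window and 2 elsewhere at the locus. The gene his-74 had a pooled candidate of 19.7 (rank 6459) 355 bp upstream, with 8.54 in replicate 1 (rank 7480) and 10.9 in replicate 2 (rank 13584). No region of any list lay within 500 bp of the starts of his-69, his-70 or his-71. Thus 0 of the 5 genes had an IDR peak (background 5.94%) and 2 had a pooled candidate (40%, background 35.1%). With 5 genes these shares do not set H3.3 apart from other protein-coding genes. The linker histone gene his-24 (H1) had a pooled candidate of 18.0 (rank 8063) inside the gene, 494 bp from its start. Neither replicate list had a region within 500 bp of that start, although replicate 2 had 1 elsewhere at the locus. Of the 2 short genes annotated only as holding a histone domain, his-73 had a candidate of 13.9 (rank 14250) 306 bp upstream, with 5.62 in replicate 1 (rank 18978) and 11.6 in replicate 2 (rank 11830), and his-39 had none. The unit of his-3 and his-4 completed the list with a candidate of 9.94 (rank 26121), which replicate 1 alone repeated (4.77, rank 25162).

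By class, an IDR peak lay at 2 of 17 H2A genes, 1 of 16 H2B genes, 1 of 15 H3 genes and 3 of 16 H4 genes. A pooled candidate lay at 3 H2A, 3 H2B, 2 H3 and 4 H4 genes. The backgrounds over all protein-coding genes were 5.94% for an IDR peak and 35.1% for a pooled candidate. Since pairs share their peaks, these counts follow the pairs and do not set the classes apart. By chromosome the IDR peaks covered both genes on chromosome I, 4 of 22 on chromosome IV and 1 of 27 on chromosome V. None of the 14 genes on chromosome II, the 3 on chromosome III or the 4 on chromosome X had one. Of the genes on chromosome II, 13 belonged to 1 cluster. Beside the background of 5.94% these counts are too small to set the chromosomes apart, and backgrounds by chromosome were not counted. Regions in a replicate list without a pooled candidate lay at 6 genes: his-42 (7.74, rank 9507) and the pair his-5/his-6 (7.60, rank 9955) in replicate 1, his-55 (7.59, rank 25778) and his-41 (8.91, rank 19940) in replicate 2, and his-35 in both.

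Of the 19 pooled regions at histone genes, 7 had the summit upstream of a start, 6 inside a gene and 6 past a 3′ end. Because most of these genes are shorter than 500 bp, the window reaches past their ends, and it cannot place a summit farther out. The 6 summits past an annotated end lay 47 to 166 bp beyond it, and whether they lay past the transcript was not checked. Just inside the 500 bp limit were the IDR peak of his-61 at 495 bp and the candidates of his-72 at 496 bp and of his-24 at 494 bp. Just outside it were candidates near his-1 at 517 bp (10.9, rank 22657) and near his-47 at 536 bp (23.5, rank 4345). The first IDR peak outside lay 592 bp into the annotated gene his-57, an H2A gene, at chrIV:11340844-11341119 with a signal of 70.4 (rank 568). Others lay 663 bp from the start of his-45 (41.5, rank 1556), where the start of B0035.21 was 9 bp away, 736 bp from the start of his-74 (51.3, rank 1062), where ccch-3 was the nearest gene start, and 752 bp from that of his-42 (55.6, rank 910).

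Many histone promoters consist of sequence present more than once in the genome, to which short reads cannot be assigned with certainty. Whether reads with several matches were kept is not stated in the labels or notes used here, so neither an empty copy nor a region at a copied gene can be read as the state of that copy. The share of 31-base words within 500 bp of the 5′ end that occur once in the genome had a median of 7.1% over the histone genes and 100% over all protein-coding genes. It was under 80% at 60 of the 72 (83.3%), against 7.56% of all protein-coding genes. The share was 72.5% to 99.8% at the 7 genes with an IDR peak, with a median of 79.1%, and the median was 60.2% at the 9 with a pooled candidate only. It was 55.3% at the 6 with a region in a replicate list only, and 0.6% at the 50 with none. At the 12 genes of at least 80%, 3 had an IDR peak (25%; background 6.26%) and 6 a pooled candidate (50%; background 36.8%). At the 60 below it, 4 had an IDR peak (6.67%; background 2.12%) and 10 a pooled candidate (16.7%; background 14.4%). The last share was close to its background, and the shares with an IDR peak rest on 3 and 4 genes. The part of unique sequence in the absence of regions was not tested.

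**Figure D3:**
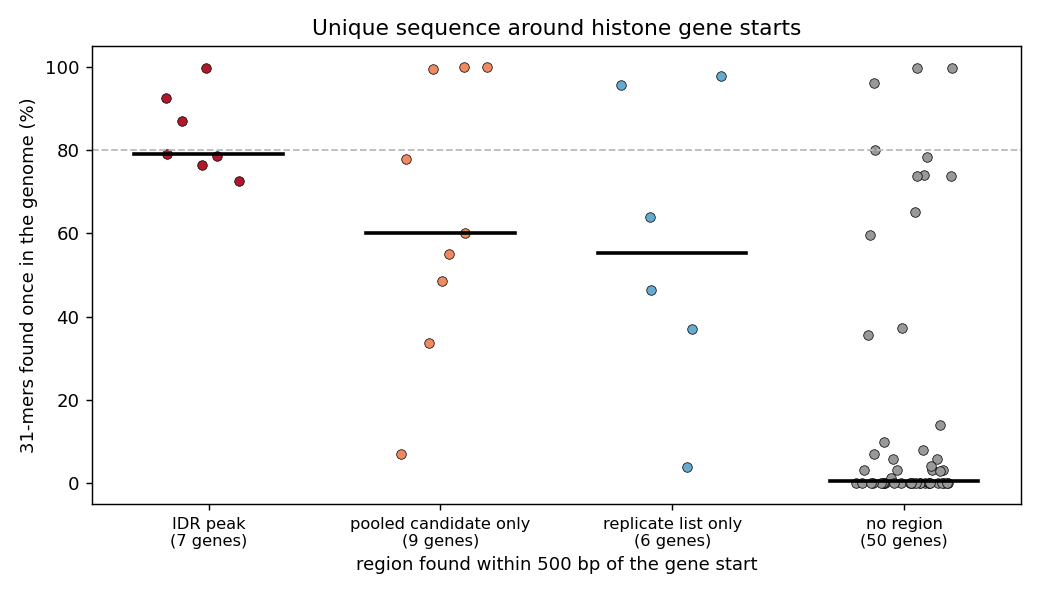
Share of 31-base words within 500 bp of the 5′ end that occur once in the genome (vertical axis, percent) for each histone gene, grouped by the kind of region found; black bars are medians and the dashed line is at 80%. The medians are 79.1% for genes with an IDR peak and 0.6% for the 50 genes with no region.

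Genes in unique sequence did not always have a region. The H3.3 genes his-69, his-70 and his-71 were 96.1%, 99.8% and 99.8% unique and had no region of any list within 500 bp of the start, as did the H3 gene his-32 at 80.1%. Replicate 2 had 1 region at the his-71 locus outside that window. The gene his-66 had a candidate with 7.1% unique words within 500 bp of its start. That summit lay 482 bp from the start and the region reached beyond the window. The share of unique words in the region itself was not measured. Among the 19 clusters, whose lengths include 500 bp to each side, 4 had no region in any list, with 22 genes over 26.8 kb. The cluster of his-50 to his-53 was 7.66 kb long and 0% unique, that of his-28 to his-18 was 10.05 kb long and 4.8% unique, that of his-29 to his-34 was 6.3 kb long and 44.6% unique, and that of his-69 and his-70 was 98.5% unique. The largest cluster, 13 genes from his-16 to his-42 on chromosome II, had no pooled candidate over 11.94 kb and was 14.3% unique. The cluster of his-61 to his-59 was 83.5% unique.

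The promoters of the pairs were compared with each other as well. The 31 intervals between divergent starts were 227 to 368 bp long, with a median of 258 bp, and 16 were identical to at least 1 other interval. None of these 16 pairs had an IDR peak, and 1 pair had a pooled candidate, his-65/his-66, outside the interval. Of the 15 other pairs 3 had an IDR peak, beside a background of 20.2% of divergent protein-coding pairs, and 5 had a pooled candidate. The IDR peaks of his-61/his-62 lay outside the interval too, 112 and 47 bp past the 3′ ends. The highest candidate of his-63/his-64 lay inside his-64. The least copied intervals compared within a kind, those of his-35/his-41 and his-31/his-32, had best identities of 52.0% and 58.8%, and neither pair had an IDR peak or a pooled candidate. The promoter of his-61 and his-62 was 79.2% identical to its nearest relative, that of his-47 and his-48. Of the 72 genes, 35 had the same sequence as another member over the whole annotated gene, so a region inside any of them could belong to its copy. The regions found at such genes, his-66 and his-55, had summits past the annotated 3′ end, which this comparison did not cover.

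Motifs were searched on both strands from 250 bp before to 50 bp after each 5′ end. TATAAA, the core of the TATA box, was in 47 histone promoters (65.3%) and in 37.9% of all promoters of the same length. CCAAT was in 54.2% and 45.5%, and CNCCTNCCC in 51.4% and 2.32%. CTGTTTCA, the core of the motif upstream of piRNA genes, was in 0 histone promoters and in 2.32% of all, and GTTCNANNC, the B box of tRNA genes, in 2.78% and 8.74%. The 31 divergent intervals held TATAAA in 24 cases, and all 10 intervals with at least 2 copies were between H3 and H4 genes. At the 7 genes with an IDR peak TATAAA was in 3 promoters and CNCCTNCCC in 0. Within 100 bp of the summit TATAAA lay at 5 of the 19 pooled regions of histone genes (26.3%), close to the 23.1% of all 29972 nuclear candidates. Its share over all IDR peaks was not counted. Of the 5 IDR peaks at histone genes 4 had it. Among these were the summits past the ends of his-61 and his-62, at 8.5 and 77.5 bp. The others were those of his-67/his-68 at 54.5 bp and his-37 at 21.5 bp. These words are carried by copied promoters, so the counts are not independent of each other.

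A further word, TGTCCCCGC, was searched because it was seen in the promoters of genes with an IDR peak, and its counts are therefore a description of the sequences that led to it. It was in 30 histone promoters (41.7%) and in 0.225% of all promoters, and in all 7 promoters of genes with an IDR peak. Of the 45 promoters in the genome that held it, 66.7% belonged to histone genes. It also stood in 19 histone promoters without a pooled candidate, among them that of his-49/his-50 printed above, whereas the his-63/his-64 and his-45/his-46 intervals had no match. Within 100 bp of the summit it lay at 5 of the 19 pooled regions of histone genes (26.3%) and at 0.0567% of the 29972 nuclear candidates. Its centre was 15 bp from the summit at his-67/his-68, 11 bp at his-59/his-60 and 24 bp at his-37, and it was not found within 300 bp of the summits past the ends of his-61 and his-62. Of 1650 nuclear IDR peaks 4 had it within 100 bp of the summit, these 3 and a peak of signal 44.2 (rank 1375), whose nearest gene start, that of rfc-3, was 1113 bp away. A match is a word in the sequence and not a shown binding site.

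Histone-related genes outside the his- symbols were looked at by the same rule. They were variants and H1 genes, genes for histone mRNA handling, and genes for chaperones and assembly factors. A list of 28 such genes was used, of which 27 were matched in the annotation, and an IDR peak lay at 9 of them (33.3%) and a pooled candidate at 22 (81.5%), beside the backgrounds of 5.94% and 35.1% given above. Among 14 matched genes for chaperones and assembly factors 8 had an IDR peak and all 14 a pooled candidate. The highest was at lin-53, a histone-binding protein of several chromatin complexes, with a pooled signal of 106 (rank 192), at rank 530 in replicate 1 and 122 in replicate 2. This peak lay 257 bp upstream of lin-53, which has the divergent neighbour nra-2. The NASP-type chaperone genes nasp-2 and nasp-1 followed with 85.7 (rank 333) and 74.5 (rank 485).

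Then came unc-85, an ASF1 chaperone, with 51.2, chaf-2 and chaf-1, subunits of the chromatin assembly factor CAF-1, with 46.6 and 41.5, hmg-3 of the FACT complex with 42.9 and nap-1 with 41.2. In the group of variants and H1 genes outside the his- symbols, 6 of 11 had a pooled candidate and 1 of 11 an IDR peak. It was htz-1, which encodes the variant H2A.Z, with a signal of 84.7 (rank 347), 288 bp upstream and shared with the divergent gene wapl-1. The centromeric H3 gene cpar-1 was just below the limit with 39.4 (rank 1709). The other centromeric H3 gene, hcp-3, had only 11.7 (rank 19883), 461 bp downstream of its start, at rank 16180 in replicate 2 and with no region in replicate 1. Both genes for histone mRNA handling, cdl-1 (the stem-loop binding protein) and csr-1 (an Argonaute), had a pooled candidate, of 38.7 (rank 1758) and 16.9 (rank 9127), and no IDR peak.

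**Figure D4:**
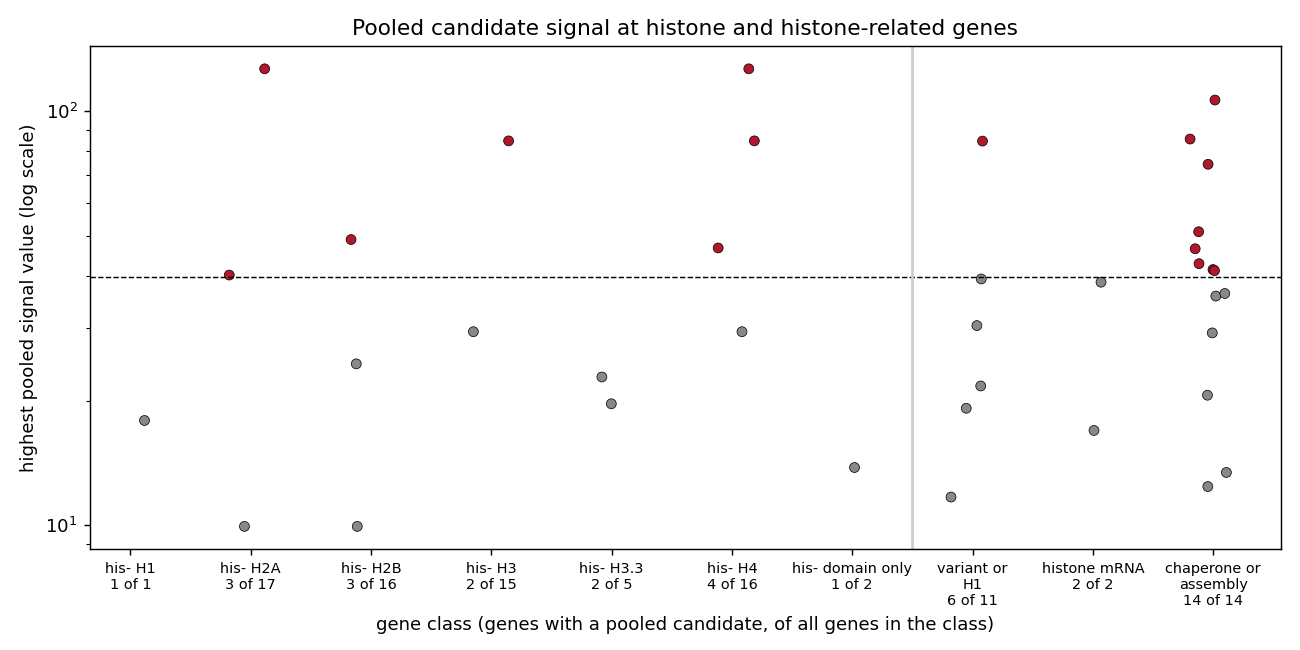
Highest pooled signal value (log axis) within 500 bp of the 5′ end for each gene with a pooled candidate, by histone class on the left and for histone-related genes on the right, with the genes of each class in the labels; red points have an IDR peak and the dashed line is the lowest IDR signal, 39.8. Chaperone and assembly genes have a candidate in 14 of 14 cases and the core histone classes in 2 to 4 genes each.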

How the data were processed

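Peak lists from 2 biological replicates were used. Per the labels' text notes, regions of each replicate were called against the same control, pooled regions from both replicates together, and IDR peaks from the 3 lists. No aligner, peak caller, read length or IDR threshold is named in the labels or notes used here. The deposited lists give the authors' signal value per region, the deposited −log10 q-value and the summit position, a number in bp. Lists on ce10 were not used here. Each candidate list holds 30000 regions, so depth is unknown and no interval was derived from it.

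Genes came from Ensembl release 115 and sequence and symbols from RefSeq, both WBcel235. Positions were made 1-based. Adjacent members on opposite strands with 5′ ends up to 1000 bp apart were a divergent pair, and members up to 10 kb apart a cluster. Divergent protein-coding neighbours within the same distance gave the background for pairs. Unique words were counted on both strands and were 31 bases long, a stand-in for reads of unknown length. Intervals were aligned globally with Biopython 1.88. Everything else used Python 3.11.15, pandas 2.3.3 and numpy 2.4.6, checked on simulated lists. No test was run, since there was 1 group and the members share copies and peaks.

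The members, lists, motifs and comparisons were chosen with earlier results of these data known. Named were all histone genes with an IDR peak, the 6 units of highest pooled signal without one, the members nearest the 500 bp limit, histone variants, related genes with an IDR peak and snpc-1.3. Other genes named were chosen after their values were seen. Alternatives were windows of 250 and 1000 bp, overlap in place of summits, the 838 IDR peaks of highest signal, any transcript start, each replicate alone, other limits for pairs and clusters, words of 36 and 50 bases and another motif window.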

Additional observations from a re-analysis of the deposited data

How the results depend on the processing

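The counts depended mostly on the window. Genes with an IDR peak, 7 at 500 bp, were 4 at 250 bp and 13 at 1000 bp, and 4 with the 838 IDR peaks of highest signal. Units, 4 in the report, were 8 at 1000 bp and 2 with those 838 peaks, and distinct peaks, 5 in the report, were 3, 9 and 2 under these settings. Divergent pairs with an IDR peak went from 3 to 5 at 1000 bp, genes with a pooled candidate from 16 to 10 at 250 bp and 29 at 1000 bp, and histone-related genes with an IDR peak from 9 to 4 with the 838 peaks. A wider window takes in more summits, and the stricter list holds fewer, by construction. With 1 replicate left out, the first 1676 regions of the other replicate were used in place of the IDR peaks. Genes with such a region were 6 both times, units 3 to 4, distinct regions 4 to 5 and pairs 3 both times. Related genes with one were 8 to 11. Histone genes with any candidate of that replicate were 16 to 18.

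Restricting the genes to those with at least 80% unique words, a choice made after seeing the data, changed the share with an IDR peak from 9.72% to 25% (31 bases), 33.3% (36 bases) and 30.4% (50 bases), and the share with a pooled candidate from 22.2% to 50%, 55.6% and 47.8%. Among all protein-coding genes held to the same limits, 6.26%, 6.26% and 6.21% had an IDR peak. A pooled candidate lay at 36.8%, 36.7% and 36.5% of them. Fewer histone genes enter the shares, 12, 18 and 23, and the 7 genes with an IDR peak share 5 peaks in 4 units. By words of 50 bases all 7 genes with an IDR peak were among the 23. Around summits in place of promoters the share with TATAAA went from 65.3% to 26.3%, with CCAAT from 54.2% to 21.1%, with GTTCNANNC from 2.78% to 10.5%, with CNCCTNCCC from 51.4% to 5.26% and with TGTCCCCGC, added after seeing the data, from 41.7% to 26.3%. Around the summits of all 29972 nuclear candidates the shares were 23.1% for TATAAA, 35.7% for CCAAT and 7.96% for GTTCNANNC. They were 1.14% for CNCCTNCCC and 0.0567% for TGTCCCCGC. The summit shares count regions in place of genes, and the cause of the changes was not tested. The remaining 35 of 58 values stayed within 1.5 times the reported count or within its binomial interval. That interval counts genes as independent, which genes with shared copies and peaks are not, so it served only to sort the values. Read depth is unknown, so a gene without a region cannot be called unbound. No paired analysis was possible because there was 1 group.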
